A study of Mus musculus with 23 samples.

Results

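Fos, Arc, Nr4a3 and Sik1 are immediate early genes, and their transcripts were followed in the prefrontal cortex of mice that carried a subcutaneous inoculum of mammary carcinoma cells. They were found by gene symbol in the platform annotation of the arrays hybridised with total RNA, which names 8726 genes, and all 4 were present. Each was represented by 1 oligo at 1 spot per array: Fos by NM_010234, Arc by NM_018790, Nr4a3 by NM_015743 and Sik1 by NM_010831. In the GRCm38.p6 assembly of the mouse genome these genes lie at chr12:85473890-85477274 (Fos), chr15:74669081-74672570 (Arc), chr4:48045078-48086447 (Nr4a3) and chr17:31844248-31855804 (Sik1). The place of the oligo within the gene was not analysed here.

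Immediate early genes are transcribed within minutes of a stimulus, without new protein synthesis. In cortical neurons, synaptic activity raises calcium and cyclic AMP, which act through kinases on the DNA-bound factors CREB, SRF and Elk1. Their transcripts are short-lived and are widely used to mark neurons that were recently active, for example after stress or a new environment. Fos encodes a subunit of the AP-1 transcription factor, and Nr4a3 an orphan nuclear receptor. Arc encodes a protein of the postsynaptic side that promotes removal of AMPA receptors from the membrane, and Sik1 a salt-inducible kinase that restrains the CREB coactivators of the CRTC family.

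The mice were female Balb/c animals aged 8 weeks. The tumour group had received 100000 4T-1 cells, a mouse mammary carcinoma line, under the skin, suspended in 100 µl PBS (phosphate-buffered saline), and the control group had received 100 µl PBS alone. Both were killed 18, 72 or 192 h later, and each array set 1 tumour RNA against 1 PBS RNA, labelled with Cy3 and Cy5. The values come from 14 arrays that form 7 replicates, numbered 4, 5 and 6 in the 18 h group and 3 and 4 in the 72 h and the 192 h groups. Each replicate was hybridised with the tumour RNA in Cy5 on 1 array and in Cy3 on the other (a dye swap). No label says whether a replicate was 1 mouse or a pool, or whether the animals were separate, so a p-value here covers the variation among these samples only, some of which may be technical. Tissue carries all its cells, so fewer cells of a type and less RNA per cell cannot be told apart.

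A log2 ratio above 0 stands for a higher transcript level after tumour cells than after PBS. This direction is likely rather than certain, since no header names the dye of a scanner channel and it was read from the sign of the authors' deposited log ratios. Once both were turned this way, the 2 arrays of a swap gave r from -0.596 to 0.156 across oligos, with a negative value in 6 of 7 replicates. Values are therefore given for both arrays as well as for their mean. The ratio of Cy5 over Cy3, for which no array is turned, stands beside the main results. Its sign rests on the same reading of the channels. Between 2329 and 6700 oligos had a value on both arrays of a replicate. The labelled tissue was checked with marker genes: 6 of 8 oligos of general neuronal markers had a ratio on at least 10 of the 14 arrays, as had 5 of 6 for cortical excitatory neurons, 5 of 6 for inhibitory neurons and 2 of 2 for the striatum (Drd2 and Tac1). None of 3 oligos for liver and muscle markers reached 10 arrays (51.31% of all oligos did), and 1 of 4 for epithelial keratins and adhesion genes did (Krt14). The liver and muscle oligos still had a ratio on a median of 8 arrays, against 10.5 for general neuronal markers, so detection separated tissues weakly. Their median log2 brightness against the array's median was -1.18, against 1.37 for general neuronal and 0.13 for cortical excitatory markers. It was 0.07 for the striatal markers, so the check did not separate cortex from striatum.

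None of the 4 genes passed an adjusted p of 0.05 (limma, Benjamini-Hochberg over all oligos tested) at any time point at which it could be tested. Fos stood lower on average at 18 h (log2 ratio -0.38 ± 0.22, SE, n = 3), through a single array of 1 replicate. At 72 h its replicates split, at -0.59 and 0.24 (mean -0.17 ± 0.27, n = 2), and at 192 h both lay nearer 0 (mean 0.11 ± 0.27, n = 2). Nr4a3 stood higher in both testable replicates at 18 h (0.41 ± 0.15, n = 2), and Arc in both replicates at 192 h (0.36 ± 0.15, n = 2). Sik1 lay within 0.22 of 0 in all 6 of its replicate values. At 18 h the fit called 0% of 3437 oligos at the adjusted threshold (212 oligos, 6.17%, at an unadjusted p under 0.05). At 72 h it called 0% of 4226 (110 oligos, 2.6%, unadjusted), and at 192 h 0% of 2762 (93 oligos, 3.37%, unadjusted).

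**Figure D1:**
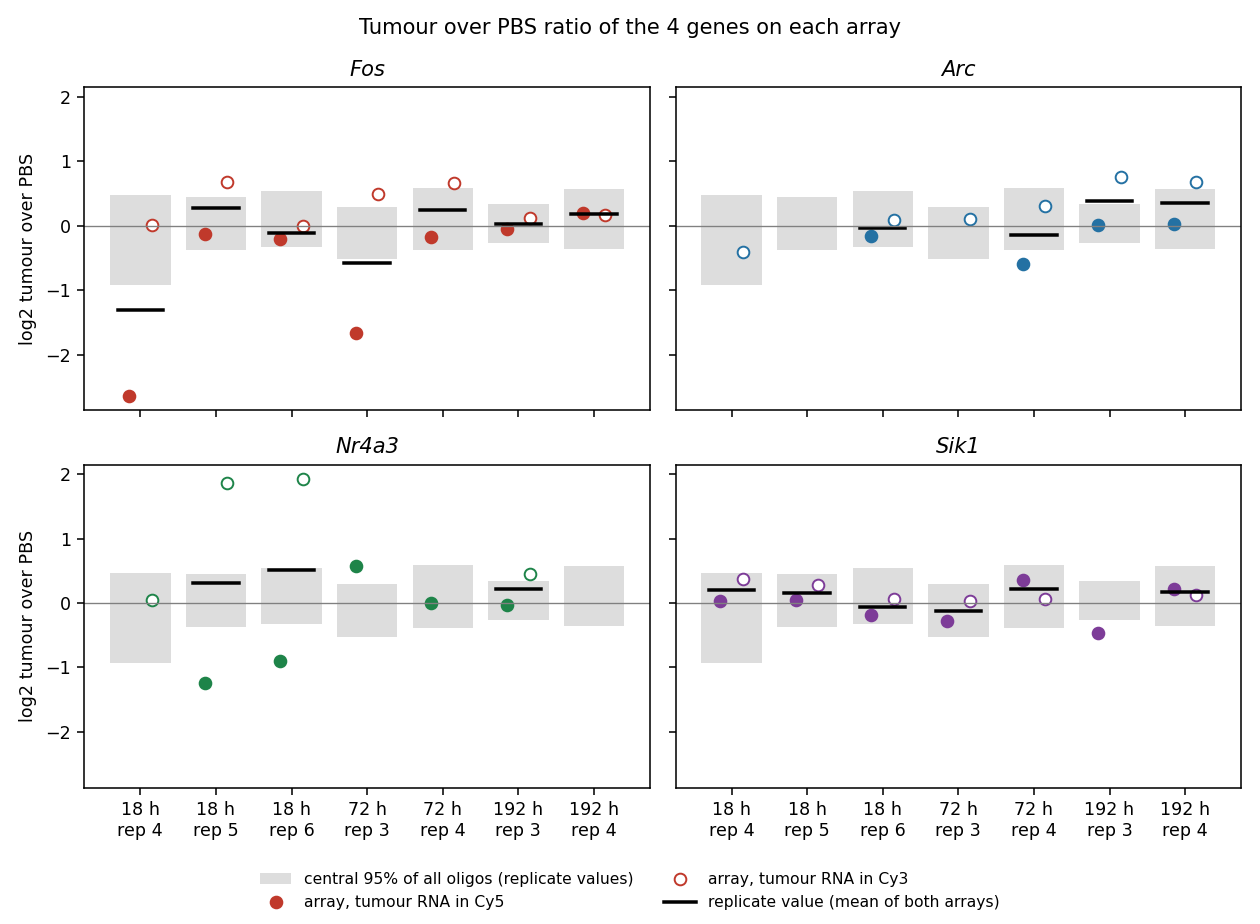
Log2 ratio of tumour over PBS (y axis) for each gene in the 7 replicates (x axis). Filled points are arrays with tumour RNA in Cy5, open points arrays with tumour RNA in Cy3, black bars replicate values, and grey boxes hold the central 95% of all oligos' replicate values. Fos has 1 array at -2.64 in replicate 4 at 18 h, and the 2 arrays of Nr4a3 lie on opposite sides of 0 in replicates 5 and 6 at 18 h.

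How often a ratio could be formed differed among the genes. A ratio needed usable signal in both channels of a scan, and each array was scanned 3 times. Fos had a ratio in all 42 scans of the 14 arrays. Arc had one on 10 arrays (28 scans), Sik1 on 13 arrays (28 scans) and Nr4a3 on 9 arrays (20 scans). The median oligo had a ratio on 10 arrays.

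Fos was also the brightest by rank, with a spot at a median percentile of 80.9 among the measured spots of its array (27.4 to 93.1). Sik1 was of middling brightness (median 46.3, highest 67.4). Arc ranked between percentiles 71.1 and 92.4 on the 4 arrays of 192 h. At 18 h its replicate 5 gave no ratio on either array, and replicate 4 gave a ratio in 1 scan of 1 array, at percentile 13.8. Replicate 6 of that time ranked at 68.1 and 82.2, so the Arc spot was dim or missing in 2 of the 3 replicates at 18 h and bright in the third. Brightness ranks compare a spot with others on the same slide and are not a comparison of tumour with PBS.

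Nr4a3 had a brightness that went with the replicate. On the 4 arrays of replicates 5 and 6 at 18 h its spot lay at percentile 76.3 or above. On the 8 other arrays of the same printing it gave a ratio on 3, at percentile 33.2 or below. Replicate 3 at 192 h, which was on another printing, gave percentiles 82.3 and 49.4. Of 2036 oligos with a ratio on all 4 arrays of replicates 5 and 6, 3 (Nr4a3, Tdrkh and Fgf11) stayed at or above the 76.3rd percentile there and at or below the 33.2nd wherever else they were measured on that printing. Tdrkh and Fgf11 were named after their values were seen. Both RNAs of a replicate add to this brightness, so it does not compare tumour with PBS, and its cause was not tested.

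**Figure D2:**
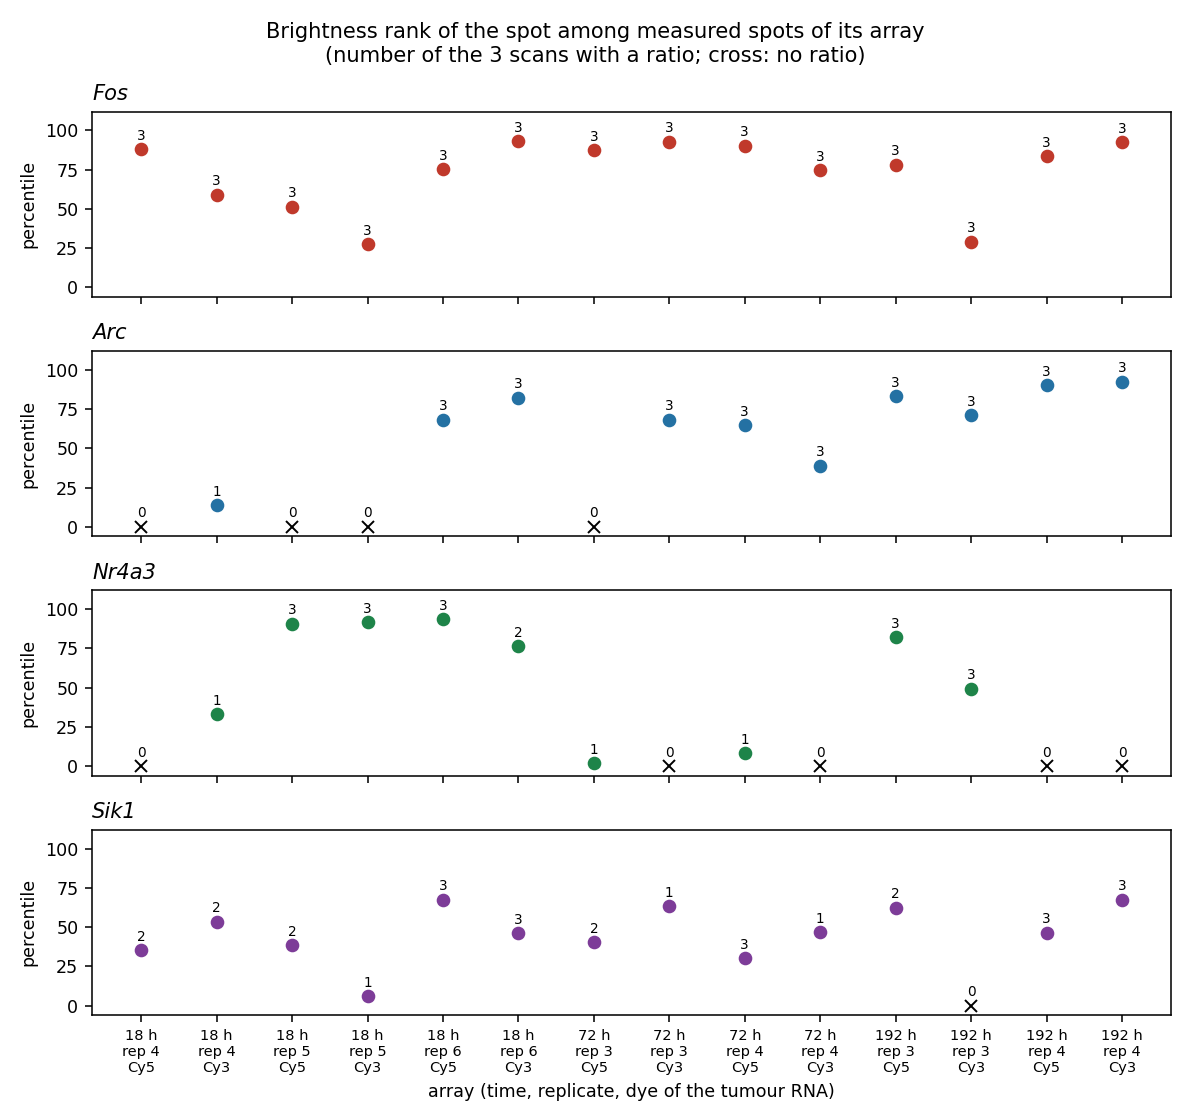
Percentile of each gene's spot brightness among the measured spots of its array (y axis) on the 14 arrays (x axis, with time, replicate and dye of the tumour RNA). The number above a point is the number of scans with a ratio, and a cross marks an array without one. Fos was measured on every array, whereas Nr4a3 was at or above percentile 76.3 in replicates 5 and 6 at 18 h and dim or missing on the other arrays of that printing.

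Among the transcription factors, Fos was the only gene of the 4 with at least 2 replicate values at every time. At 18 h its array log2 ratios were -2.64 (tumour in Cy5) and 0.01 (tumour in Cy3) in replicate 4, -0.13 and 0.69 in replicate 5, and -0.20 and -0.01 in replicate 6. The replicate values, each the mean of both arrays, were thus -1.31, 0.28 and -0.11. Replicate 4 was low and the other replicates lay on both sides of 0, with replicate 5 the highest.

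In replicate 4 the low value came from the array with tumour RNA in Cy5 alone. Its 3 scans of the same spot gave -2.48, -2.71 and -2.73, so the scans repeated each other. In each, the background-subtracted tumour signal was smaller than the local background (0.69, 0.65 and 0.74 of it). In the second scan the background-subtracted intensity of the Fos spot was 242002 for the tumour RNA in Cy5 and 858982 for the PBS RNA in Cy3. On the swapped array of the same replicate those intensities were 95461 for the tumour RNA in Cy3 and 152184 for the PBS RNA in Cy5, and the 3 scans gave log2 ratios from -0.33 to 0.46. In that scan the intensity ratio of tumour over PBS was thus below 1 on both arrays, and after the loess correction for brightness the swapped array averaged 0.01 over its scans. Replicate 4 also had the widest spread of log2 ratios of all replicates (SD 0.354, against 0.163 to 0.253 in the others), and its 2 arrays correlated at -0.500. Within it, Fos ranked as the 16th lowest of 2985 oligos.

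Over the 3 replicates the log2 ratio of Fos at 18 h was -0.38 ± 0.22 (SE), with a 95% interval from -0.84 to 0.08 and an adjusted p of 0.842 (limma). Without replicate 4 it was 0.09 ± 0.16 (n = 2), so its sign rested on that replicate. Left as Cy5 over Cy3, with no sign turned, it was -0.61, with an adjusted p of 0.28 in the same limma fit.

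At 72 h the Fos arrays were -1.67 (tumour in Cy5) and 0.49 (tumour in Cy3) in replicate 3, and -0.17 and 0.66 in replicate 4. The replicate values were -0.59, the 104th lowest of 5887 oligos, and 0.24. The replicates lay on opposite sides of 0, and in each the array with tumour RNA in Cy5 was the lower of the pair. The estimate was -0.17 ± 0.27 (95% interval -0.74 to 0.39, adjusted p = 0.998, limma). With loess run within each block of the slide it turned to 0.22, and the authors' deposited log ratios, whose log base is not stated, gave 0.09.

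At 192 h Fos stood at -0.04 and 0.11 on the arrays of replicate 3 and at 0.20 and 0.17 on those of replicate 4. The replicate values of 0.03 and 0.19 were the closest pair of any time point for this gene, and both were above 0. The estimate was 0.11 ± 0.27 (95% interval -0.46 to 0.68, adjusted p = 1, limma), the SE being that of the spread shared over the time points.

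The order of Fos from lowest to highest was 18 h, 72 h and 192 h, and no neighbouring times differed beyond their error. This order changed without replicate 4 at 18 h, which put 18 h at 0.09, and with loess within blocks, which put 72 h at 0.22 and 192 h at 0.11. The difference of 72 h minus 18 h was 0.21 (95% interval -0.63 to 1.04), and that of 192 h minus 72 h 0.28 (-0.63 to 1.20). The difference of 192 h minus 18 h was 0.49 (-0.35 to 1.32). The F test of any difference between times gave an adjusted p of 0.941 over 1231 oligos (limma). Over all 7 replicates the mean was -0.18 with an SD of 0.58, with 4 values above 0 and 3 below, and the exact sign-flip permutation test gave p = 0.531 (two-sided).

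Nr4a3 had the widest split between dyes. In replicate 5 at 18 h its arrays stood at -1.25 (tumour in Cy5) and 1.86 (tumour in Cy3), and in replicate 6 at -0.90 and 1.92. Replicate 4 had a ratio on the array with tumour RNA in Cy3 alone, at 0.04, and so no replicate value. The Cy3 signal exceeded the Cy5 signal after loess on all 4 arrays of replicates 5 and 6, whichever RNA carried it, so arrays with tumour RNA in Cy5 lay below 0 and those with it in Cy3 above. The spot was well lit in replicate 5: in the second scan the intensities were 948614 for the tumour RNA and 952532 for the PBS RNA on 1 array, and 1912765 and 1196202 on the other. In replicate 6 the PBS signal in Cy5 was weak on the array with tumour RNA in Cy3. It was 107471 against a local background of 84588 in the first scan and missing in the second, so 2 scans gave a ratio.

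Averaging the swap left 0.31 in replicate 5 and 0.51 in replicate 6, the latter the 192nd highest of 6319 oligos. The estimate at 18 h was 0.41 ± 0.15 (n = 2, 95% interval 0.08 to 0.73), with an unadjusted p of 0.0177, the 75th smallest of 3437, and an adjusted p of 0.745 (limma). The part common to both arrays, the mean of Cy5 over Cy3, was -1.55 in replicate 5 and -1.41 in replicate 6, 0.343% and 0.601% of oligos being lower. It was larger than the tumour over PBS difference in both. With no sign turned, Nr4a3 was at -1.48 ± 0.13 with an adjusted p of 0.0089 (limma), among 44 of 3437 oligos called (1.28%), all of them lower in Cy5. With each scan centred on its median in place of loess, the tumour over PBS estimate was -0.01 (limma adjusted p = 0.996).

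**Figure D3:**
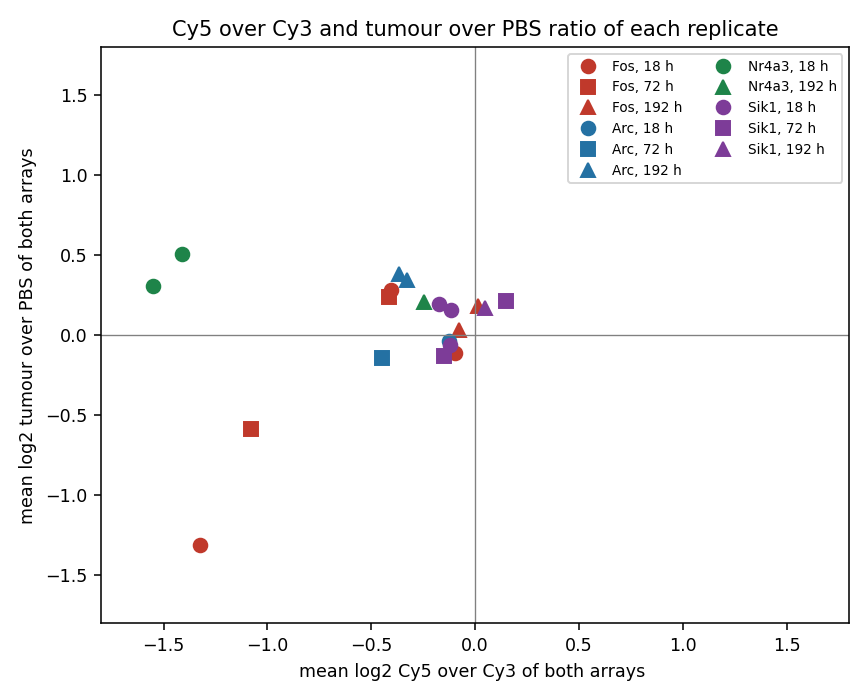
Each point is 1 replicate of 1 gene with both arrays measured. The x axis is the mean log2 ratio of Cy5 over Cy3 of both arrays, and the y axis the mean log2 ratio of tumour over PBS; both axes span the same range. The 18 h replicates of Nr4a3 lie at -1.55 and -1.41 on the x axis and at 0.31 and 0.51 on the y axis, while Fos in replicate 4 at 18 h lies as far from 0 on one axis as on the other.

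At 72 h Nr4a3 had a ratio on the arrays with tumour RNA in Cy5 alone, at 0.58 in replicate 3 and 0.00 in replicate 4, each from 1 scan of a dim spot (percentiles 1.99 and 8.21). No replicate value could be formed. At 192 h replicate 3 gave -0.03 and 0.46, with a mean of 0.21, and replicate 4 gave none. All 3 replicate values of Nr4a3 were above 0 (0.21, 0.31 and 0.51), where 3 values allow no exact sign-flip permutation p below 0.25 (two-sided, p = 0.25). A fit with arrays as observations and a term for the dye uses the single arrays too. It put Nr4a3 at 0.16 ± 0.28 at 18 h over 5 arrays and at 1.19 ± 0.49 at 72 h (limma adjusted p of 0.937 and 1). The 72 h value stands on 2 dim arrays of 1 dye orientation, and so on the estimated dye term.

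Arc, the synaptic gene of the group, had both of its 192 h replicates above 0. In replicate 3 its arrays stood at 0.02 (tumour in Cy5) and 0.75 (tumour in Cy3), and in replicate 4 at 0.02 and 0.67. The 2 replicates, on different printings of the array, gave nearly the same values: 0.38, the 49th highest of 3172 oligos, and 0.35, the 613th highest of 6700. In both, the array with tumour RNA in Cy3 carried the difference and the other lay near 0. Replicate 3 was the only replicate on its printing. Across oligos its 2 arrays correlated at -0.596 once turned, the lowest r of any replicate, against 0.156 in replicate 4. With the authors' deposited log ratios they correlated at 0.513 and -0.403, weaker than any other array. The estimate was 0.36 ± 0.15 (95% interval 0.05 to 0.68), with an unadjusted p of 0.0282, the 52nd smallest of 2762, and an adjusted p of 1 (limma). Left as Cy5 over Cy3 with no sign turned it was -0.35 ± 0.12, of like size and opposite sign (limma adjusted p = 0.601).

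At 18 h a replicate value of Arc could be formed for replicate 6 alone, at -0.04 from arrays of -0.16 and 0.09. The array with tumour RNA in Cy3 in replicate 4 gave -0.41 from 1 scan. At 72 h replicate 4 gave -0.59 and 0.31, with a mean of -0.14, and replicate 3 gave 0.10 on the array with tumour RNA in Cy3 alone. In replicate 4 at 72 h the spot was near background. Its background-subtracted signal averaged 1.10 (Cy3) and 1.23 (Cy5) of the local background on 1 array. On the array with tumour RNA in Cy3 it averaged 0.53 and 0.80, against 3.28 to 12.2 on the 192 h arrays. The single replicates at 18 and 72 h were below 0 and those at 192 h above. In a limma fit that accepted 1 value a time, with the spread shared over times (chosen after seeing the data), 192 h minus 18 h was 0.40 (95% interval -0.15 to 0.95, adjusted p = 0.959). In that fit 192 h minus 72 h was 0.51 (-0.05 to 1.06, adjusted p = 0.998, limma). The fit over single arrays with a dye term gave -0.25 ± 0.17 for 18 h and -0.15 ± 0.17 for 72 h, each over 3 arrays (limma adjusted p of 0.825 and 1). Over the 4 replicate values of Arc the exact sign-flip permutation test gave p = 0.5 (two-sided, smallest possible 0.125).

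Sik1, the kinase, stayed closest to 0. At 18 h its replicate values were 0.20, 0.16 and -0.06 in replicates 4, 5 and 6, with an estimate of 0.10 ± 0.12 (95% interval -0.16 to 0.36, adjusted p = 0.961, limma). At 72 h they were -0.13 and 0.22, with an estimate of 0.04 ± 0.15 (-0.27 to 0.36, adjusted p = 0.998, limma). Some of these values came from dim spots or few scans. On its array with tumour RNA in Cy3, replicate 5 at 18 h had 1 scan, at percentile 5.90. Each 72 h replicate had 1 scan on its array with tumour RNA in Cy3. In replicate 4 at 18 h the background-subtracted signal averaged 0.47 (Cy3) and 0.59 (Cy5) of the local background on 1 array. On the other it averaged 0.69 and 1.00, whereas replicate 6 had 1.24 to 2.76. At 192 h replicate 4 stood at 0.17, while replicate 3 gave -0.46 on its array with tumour RNA in Cy5 and no ratio on the other.

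The Sik1 arrays ranged from -0.46 to 0.37, a narrower span than those of the other 3 genes, and 10 of 13 were above 0. Of the 6 replicate values 4 were above 0, with a mean of 0.09 ± 0.15 (SD), and the exact sign-flip permutation test gave p = 0.188 (two-sided, smallest possible 0.0312). Without replicate 4 at 72 h the 72 h estimate was -0.13, so the sign there rested on it. The authors' deposited log ratios gave -0.05 at 18 h.

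Read as Cy5 over Cy3, with the channels named as above, the arrays were below 0 on 12 of 14 for Fos, 7 of 10 for Arc, 7 of 9 for Nr4a3 and 9 of 13 for Sik1. Over all oligos and arrays 50.2% of the values were below 0. The dye term in the fit over all arrays was -0.48 ± 0.18 for Fos, -0.26 ± 0.09 for Arc, -0.90 ± 0.24 for Nr4a3 and -0.09 ± 0.08 for Sik1. The adjusted p-values were 0.324, 0.325, 0.141 and 0.698 (limma), and 49 of 8952 oligos were called for this term (0.547%, all lower in Cy5). In size, it exceeded the tumour over PBS estimates of Fos at each time and that of Nr4a3 at 18 h, and was smaller than that of Arc at 192 h.

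Close relatives of the 4 genes were measured on the same slides. Of 22 relatives listed, 13 were on the arrays and 9 could be tested at some time, and 0 passed. At 18 h Fosb, an AP-1 subunit like Fos, stood at 0.07 ± 0.12, and Fosl2, another, at 0.02 ± 0.15. At 72 h Fosl2 stood at 0.00, Atf3, a stress-induced factor that pairs with AP-1 proteins, at 0.00 and Jund, the AP-1 partner that is expressed at rest, at 0.02.

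Of these AP-1 genes Fosb alone had a value in replicate 4 at 18 h, where Fos was low, and it stood there at -0.06. Of the 11 immediate early genes tested at 18 h with a value in that replicate, 9 were below 0, Fos included, with a median of -0.18. Over all oligos of the replicate 56.2% were below 0 and the median was -0.05. The replicate was singled out because Fos was low in it, so this count is a description and not a test. Egr4, listed but not tested at 18 h, stood there at 0.11. Next to Fos, the lowest were Nptx2 (-0.81), Klf2 (-0.49), Ppp1r15a (-0.45) and Srf (-0.43), named after their values were seen. Egr3, a zinc finger factor induced by synaptic activity, was at 0.03 ± 0.12 at 18 h and 0.26 ± 0.15 at 72 h, with both 72 h replicates above 0 (0.30 and 0.21, limma adjusted p = 0.998). Egr4 stood at 0.00 at 72 h. Dusp1, a phosphatase that ends MAP kinase signals, was at -0.08, 0.09 and 0.01 at 18, 72 and 192 h, in that order. Bdnf, the activity-dependent neurotrophin gene, was at 0.05 at 18 h and 0.06 at 192 h. Jund at 192 h was at 0.08.

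The NR4A family gave little more. Nr4a2, a related orphan receptor, had replicate values of 0.14 (18 h, replicate 6), -0.43 (72 h, replicate 4) and -0.41 (192 h, replicate 4), 1 a time and so without a test. Rxra, a partner of some NR4A receptors, stood at -0.25 ± 0.16 at 18 h. Sik3, a sister kinase of Sik1, was at 0.14 ± 0.15 at 18 h and 0.34 ± 0.15 at 192 h (unadjusted p = 0.0466, adjusted p = 1, limma), with both 192 h replicates above 0 (0.19 and 0.48).

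As a group, immediate early genes were spread around 0. Of 57 listed genes 31 were on the arrays; 17 were tested at 18 h, with 9 above 0, a median log2 ratio of 0.01 and 0 passed. All oligos tested at that time had 47.5% above 0 and a median of -0.01. At 72 h 10 of 16 were above 0 (median 0.01, 0 passed), against 45.6% and -0.02 over all oligos. At 192 h 7 of 10 were above 0 (median 0.06, 0 passed), against 55.4% and 0.02.

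In the list, Nr4a3 was the highest and Nptx2, which encodes a secreted synaptic pentraxin, the lowest at 18 h (-0.39 ± 0.18, limma adjusted p = 0.793), with Fos next to it. The value of Nptx2 came from replicate 4 (-0.81), since replicate 6 stood at 0.03. At 72 h Egr3 was the highest and Fos the lowest, and at 192 h Arc the highest. Ppp1r15a, a stress-induced subunit of an eIF2 alpha phosphatase, stood at -0.20 ± 0.13 at 18 h, with -0.45, -0.15 and -0.02 in replicates 4, 5 and 6. Of the members, the 2 with an unadjusted p under 0.05 at some time (Nr4a3 and Arc) are read against the 6.17% and 3.37% of all oligos given above.

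**Figure D4:**
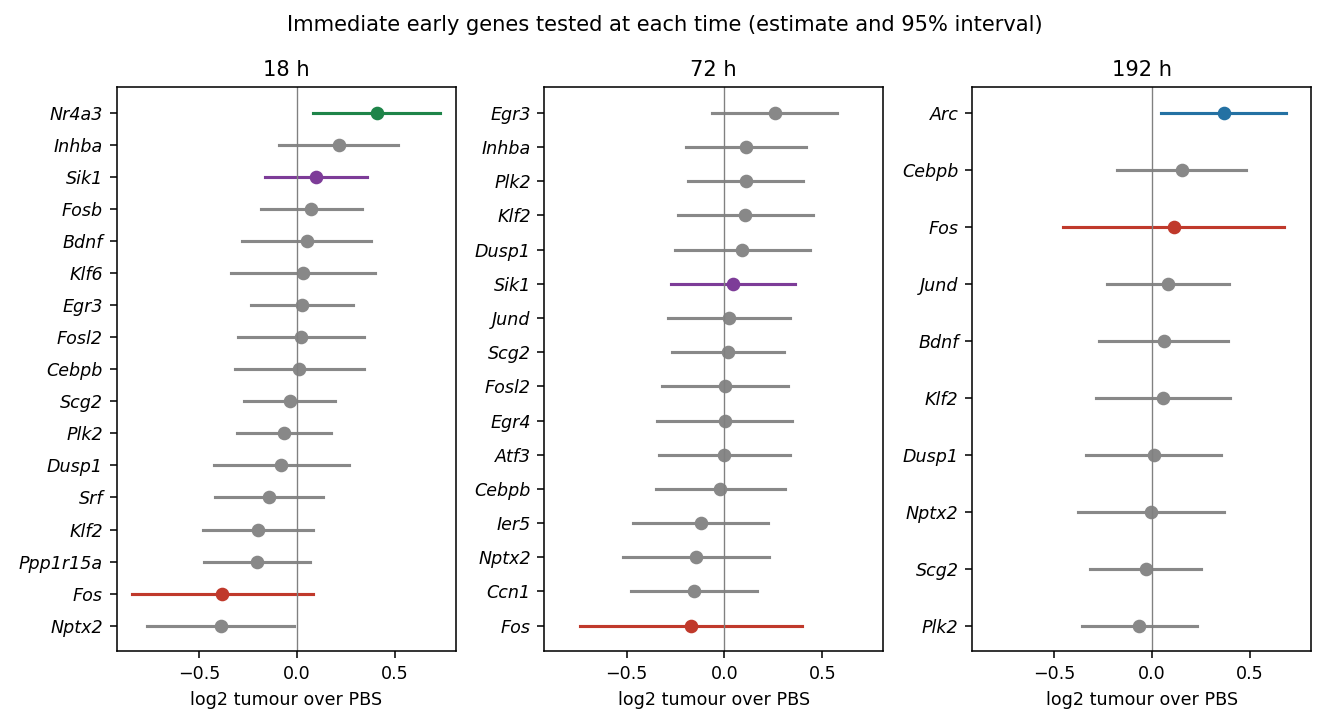
Log2 ratio of tumour over PBS (x axis) with its 95% interval for each immediate early gene tested at 18, 72 and 192 h, sorted by value. Fos is red, Arc blue, Nr4a3 green, Sik1 purple and the others grey. The intervals of Nr4a3 and Nptx2 at 18 h and of Arc at 192 h leave out 0 before adjustment, and none passed after it.

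Kinases, phosphatases and factors that act upstream of these genes were also examined, with 15 of 44 on the arrays. At 18 h 1 of 10 tested was above 0, with a median of -0.15 and 0 passed, against 47.5% above 0 and a median of -0.01 over all oligos. It was Ptpn5, a phosphatase that dampens synaptic ERK signals, at 0.17 ± 0.14. Creb1, which encodes CREB itself, stood at -0.62 ± 0.22 (n = 2, limma adjusted p = 0.745). Like Fos it was low in replicate 4 (-1.25) and at 0.01 in replicate 6. Ppp3cb, a catalytic subunit of calcineurin, was at -0.53 ± 0.16, with -0.83 in replicate 4 and -0.23 in replicate 6. Elk1, a partner of SRF, was at -0.24 ± 0.12 and Srf at -0.14 ± 0.13. Srf too was low in replicate 4 alone (-0.43, against 0.01 and 0.00 in replicates 5 and 6), while Elk1 was below 0 in all 3 replicates (-0.28, -0.28 and -0.16). At 72 h 3 of 8 were above 0 and at 192 h 6 of 9, with medians of -0.01 and 0.06. Over all oligos the shares above 0 were 45.6% and 55.4%.

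Proteins that work with Arc at the synapse were represented by 15 of 20 listed genes, Arc included. At 192 h 5 of 8 tested were above 0 (median 0.05, 0 passed), against 55.4% and 0.02 over all oligos. Dlg4, the scaffold PSD-95, was at 0.45 ± 0.23, and Camk2a, a synaptic kinase gene whose mRNA, like that of Arc, is carried into dendrites, at 0.32 ± 0.18 (limma adjusted p = 1 for each). Replicate 4 alone carried both: Dlg4 stood at 1.02 there and at -0.13 in replicate 3, and Camk2a at 0.74 and -0.10, whereas both replicates of Arc were above 0. The AMPA receptor subunits Gria1 and Gria4 stood at 0.04 and 0.05. At 18 h 2 of 5 were above 0, with Camk2b lowest at -0.25 ± 0.15, and at 72 h 4 of 7. The shares over all oligos were 47.5% and 45.6%.

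Of the SIK pathway, 8 of 14 listed genes were on the arrays. At 18 h 3 of 3 were above 0, against 47.5% of all oligos. They were Sik1 itself, Sik3 and Stk11, the kinase that activates SIKs, the last at 0.12 ± 0.14. At 72 h 3 of 7 were above 0, against 45.6% of all oligos. Crtc2, a CREB coactivator that SIKs restrain, was at -0.12 ± 0.16, and the class IIa deacetylases Hdac5, Hdac7 and Hdac9 at -0.03, 0.09 and 0.18. At 192 h 3 of 3 were above 0, against 55.4% of all oligos, and 0 passed at any time.

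The genes whose pattern across replicates was most like that of Fos were Rgs19, Tlcd1 and Ndufaf4, with Pearson r of 0.998, 0.996 and 0.995 over 6 shared replicates, among 1580 genes compared. For Sik1 they were Vamp5, Cmtm5 and Cpne8 (r of 0.935, 0.934 and 0.912, 6 replicates, 727 genes). For Arc, with 4 replicate values, the arrays were used, and Oprl1, Srpk2 and Dlgap1 came first (r of 0.929, 0.915 and 0.851 over 10 arrays, 1137 genes). Nr4a3 had too few arrays, 9 where 10 were needed. The Fos values ran from -1.31 in replicate 4 at 18 h to 0.28, so where that replicate was shared it weighed most in r. All these points share slides, dyes and normalization, and the values describe likeness in these few samples only.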

How the data were processed

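Prefrontal cortex RNA of tumour-bearing and PBS mice was compared on in-house printed 2-colour oligonucleotide arrays. Of 23 arrays, the 14 with total RNA were used, and the 9 with poly A RNA were left out because their oligo names could not be matched to the rest. The members and gene lists were chosen with earlier results of these data known.

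Per the file headers, the deposited scanner tables hold, for 3 scans of 10080 spots, integrated intensities of channels A and B after subtraction of the local background, beside the background intensity itself. A deposited fraction gives the unsaturated share of each spot's pixels. The authors' value tables hold a log ratio per spot, treated here as a score because neither its log base nor its normalization is stated. Scanner spots, put in block order, correlated with these values at r of 0.513 to 0.829 on arrays with tumour RNA in Cy5 and at -0.849 to -0.403 with tumour RNA in Cy3, so channel B was read as Cy5. The sources used here name no image analysis tool. The number of arrays limits the precision.

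Spots flagged as usable, with 2 intensities above 0 and a fraction of at least 0.9, gave log2 ratios. Loess (span 0.3, 4 iterations) was fitted per scan, and scans, then spots of 1 accession, were averaged. Signs were turned for tumour RNA in Cy3. Both arrays of a swap were averaged into 1 replicate value, which needs both. Oligos with at least 2 replicate values at a time were tested with limma 3.58.1 in R 4.3.3 (lmFit, eBayes, 1 coefficient per time and a shared spread, two-sided), with Benjamini-Hochberg adjustment and a threshold of 0.05. No normexp correction was applied in the reported fit, since intensities were already background-corrected. Single genes also had an exact sign-flip permutation test over replicates. The fit was tested on simulated data.

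Genes named are the 4 members, their listed relatives where tested, up to 3 other genes of smallest unadjusted p per list and, by Pearson r, the 3 genes most like each member; other list members given were chosen after their values were seen. Gene names come from the platform annotation; of 8997 accessions naming 1 gene, 8909 matched the RefSeq table of GRCm38.p6, each under an identical symbol. Replicate numbers 3 and 4 occur at both 72 and 192 h, and the deviations of same-numbered replicates correlated at 0.000918 across oligos. This cannot exclude a pairing, since an effect shared by tumour and PBS RNA cancels in the ratio. The numbers were not taken to pair samples, and a fit with them as a block was run as an alternative. Alternatives were median centring, loess within blocks, normexp, no saturation limit, trend and robust settings, dim spots left out, single scans, arrays as observations, the authors' values, no sign turned, the replicate block, each replicate left out and, chosen after seeing the data, 1 replicate value a time as enough for the difference between times.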

Additional observations from a re-analysis of the deposited data

Results flagged for a closer look

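One value stood far from the others of its group. Among the 6 array log2 ratios of Fos at 18 h, the array of replicate 4 with tumour RNA in Cy5 was at -2.64, and its gap to the nearest other array took up 0.732 of the whole range. Of 10 groups of array values checked among the 4 genes this was the only 1 beyond Dixon's limit, and chance alone passes that limit in about 1 in 20 groups. The 3 scans of that array lay between -2.73 and -2.48, and the swapped array of the same replicate was at 0.01.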

How the results depend on the processing

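The 7 tested values of the 4 genes were recomputed under the alternatives, which gave 124 values. Of these, 12 turned the direction and the rest kept it and stayed on their side of the threshold. Many could not turn: leaving out a replicate of another time keeps an estimate as it is, as do the trend and robust settings. Arrays as observations also returned the same estimates for Fos, Sik1 and Arc. The setting with no sign turned measures Cy5 over Cy3 instead. With no sign turned, Nr4a3 at 18 h was -1.48, Sik1 -0.14 at 18 h and -0.0022 at 72 h, Fos -0.032 at 192 h and Arc -0.35 at 192 h; the first was the only one past the threshold (adjusted p = 0.0089, limma). Median centring put Nr4a3 at 18 h at -0.0077, loess within blocks Fos at 72 h at 0.22, and the authors' values Sik1 at 18 h at -0.053 and Fos at 72 h at 0.086. The cause was not tested. Leaving out 1 replicate at a time gave Fos -0.71 to 0.086 at 18 h (0.086 without replicate 4), -0.59 to 0.24 at 72 h and 0.03 to 0.19 at 192 h. It gave Sik1 0.05 to 0.18 at 18 h and -0.13 to 0.22 at 72 h, and Arc 0.35 to 0.38 at 192 h. Nr4a3 at 18 h stayed at 0.41 without replicate 4 or any later replicate; without replicate 5 or 6 it fell below the minimum of 2 values.

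Counts of oligos called were 0 as reported at each time. At 18 h they were 8 with median centring and 44 with no sign turned, at 72 h 7 with no sign turned, and at 192 h 1 with median centring and 3 with arrays as observations; the average over times gave 10 with no sign turned. The difference between times gave 3 with 1 replicate value a time enough, a setting chosen after seeing the data. Leaving out 1 replicate gave 0 to 1 at 72 h (1 without replicate 4) and 0 to 19 at 192 h (19 without replicate 3), where the remaining replicate is taken to vary as the other times do. With the replicate block, the 192 h minus 72 h difference of Fos was 0.28 ± 0.22 (SE), as without it, and 0 oligos were called either way by limma. Fos at 18 h had no value with loess within blocks, and Nr4a3 and Sik1 had none in some single scans. With 2 or 3 replicates a time, the median 95% interval, not adjusted for the number of oligos, was 0.32 wide on either side. Smaller changes were thus not detectable for most oligos, and larger ones could be missed too. Nr4a3 at 18 h (0.41) and Arc at 192 h (0.36) did not pass after adjustment. Arc and Nr4a3 spots near background limited which times could be tested. Sik1 was not tested at 192 h, where its replicate 3 had no Cy5 signal on the array with tumour RNA in Cy3.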
